A study of Mus musculus with 12 samples.

Results

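The comparison asks whether the ratio of ribosome-bound to remaining RNA differed between 2 genotypes of mouse hypothalamus. For each gene the bead to supernatant ratio of Stat3KO was set against that of Ctrl, as (Stat3KO bead minus Stat3KO supernatant) minus (Ctrl bead minus Ctrl supernatant) on the log2 scale, with the pool of mice as a block. It uses all 12 of the 12 libraries in the series, which form 4 groups of 3. The Stat3KO mice were LepRb-Cre/Cre, Stat3-flox/flox and R26-GFP:L10a/GFP:L10a, and the Ctrl mice were LepRb-Cre/Cre and R26-GFP:L10a/GFP:L10a, so that both groups carried Cre and the tagged ribosome and differed by the floxed Stat3 alleles. Cre came from the locus of the long leptin receptor (LepRb), and in those cells it also switched on L10a, a protein of the large ribosomal subunit, fused to green fluorescent protein. All mice were adults, with age and sex not given in the sources used here. Hypothalami of 5 to 8 mice made 1 pool, and each of the 3 pools per genotype gave a bead library (RNA on tagged ribosomes) and a supernatant library (RNA left after the pull-down). The p-values therefore measure the spread among 6 pools. Fewer cells of a type and less RNA per cell cannot be told apart in such bulk RNA.

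Leptin, a hormone of fat tissue, binds LepRb and activates the transcription factor STAT3. In the arcuate nucleus, leptin acts on neurons that make the appetite-suppressing products of Pomc and Cartpt and on neurons that make the appetite-stimulating peptides of Agrp and Npy. Interferons act through related proteins of the STAT family. A complex that holds STAT2 and IRF9 binds a DNA element named ISRE in front of antiviral genes, and pairs of STAT proteins bind a palindromic element. A ratio within a pool shows where an RNA was richer, on tagged ribosomes or in the rest of the tissue, and it stays the same when both fractions move by the same factor.

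Total counts ranged from 20743217 to 41829907 per library. Stat3 itself, the targeted gene, had 114, 149 and 160 counts scaled to library size (CPM) in the Stat3KO beads of pools 1, 2 and 3 and 54.6, 74.2 and 79.8 CPM in their supernatants. The Ctrl pools had 144, 175 and 179 CPM on beads and 56.0, 65.2 and 59.6 CPM in supernatant. The Stat3 ratio was 1.02 in Stat3KO and 1.46 in Ctrl, and the 3 Stat3KO pools lay below the 3 Ctrl pools. The difference of -0.44 (SE 0.0999) did not pass edgeR's quasi-likelihood test with Benjamini-Hochberg adjustment over all genes (adjusted p = 0.213), the test used for every adjusted p here unless another tool is named. With pools 2 and 3 of each genotype alone it passed (-0.51, adjusted p = 0.0241). Counts are summed over the whole gene, so a loss of the floxed exons cannot be read from them.

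The strength of the pull-down was compared by its own transcripts. The Gfp_L10a transcript of the tagged ribosome had log2 ratios of 3.47, 3.45 and 3.27 in the Stat3KO pools and 3.06, 4.06 and 3.56 in the Ctrl pools (means 3.40 ± 0.113 and 3.56 ± 0.503, SD, n = 3). An exact two-sided permutation test gave p = 0.7, and with 3 pools against 3 the smallest possible p is 0.1. The Cre transcript had mean ratios of 2.16 ± 0.177 in Stat3KO and 2.58 ± 0.901 in Ctrl (SD, n = 3), with p = 0.6 by the same permutation test. Lepr, the receptor gene, had ratios of 2.29 in Stat3KO and 2.35 in Ctrl. Markers of the hypothalamus were present: the 47 tested hypothalamic transcription factors summed to 1006 to 1294 CPM in the Ctrl and 1025 to 1298 CPM in the Stat3KO libraries. In all 4 groups pool 1 differed most: its chi-square per gene was 23.6 to 69.2 against pools 2 and 3, which differed by 5.70 to 14.8 from each other. Mitochondrially encoded RNA, which should not sit on these ribosomes, was 0.166% of counts on the beads of Ctrl pool 1 and 0.0180% to 0.0403% on the other beads.

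Of 19122 genes tested, 55 (0.288%) had a higher ratio and 4 (0.0209%) had a lower ratio in Stat3KO than in Ctrl. Before adjustment 747 genes had p under 0.05, against 956 if p-values were uniform. DESeq2 called 71 higher and 9 lower, and limma-voom 46 and 5. For all 59 genes the 3 Stat3KO pools lay on 1 side of the 3 Ctrl pools, as they did for 9.66% of all tested genes. Of the 55 higher genes 43 stand in 3 lists of antiviral and antigen-presenting genes, namely interferon-induced genes, interferon-induced GTPases and MHC class I presentation. These lists had 49, 17 and 23 members among the 19122 tested genes. They were chosen with earlier results of these data known, so the count of 43 is a description and no separate support. The 4 lower genes were Cartpt, Pomc, Serpina3n and Nts. The count of higher genes dropped to 35 without Stat3KO pool 3 and to 33 without Ctrl pool 2, the count of lower genes was 9 without Stat3KO pool 1, and 30 of the 59 genes were called under all 16 other settings. All 59 kept their direction in these, 24 lost the call on leaving out 1 pool, and 23 lost it in a fit without the pool block.

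**Figure D1:**
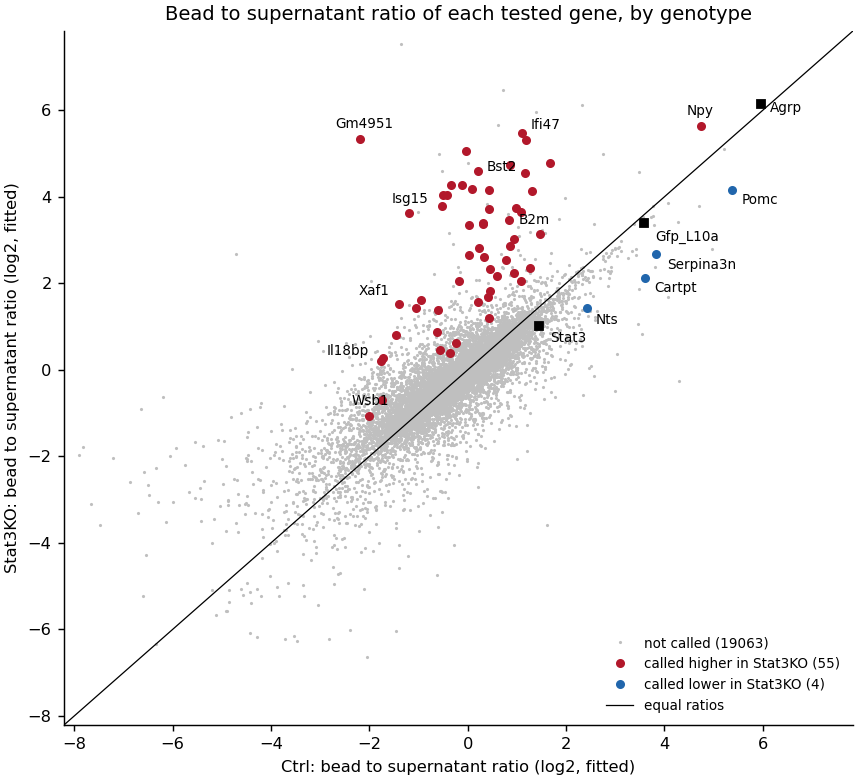
Fitted log2 bead to supernatant ratio of each of 19122 tested genes in Ctrl (horizontal axis) and Stat3KO (vertical axis), with genes called higher in red, genes called lower in blue and 3 genes not called as black squares. The 55 red genes lie above the line of equal ratios, with a median Ctrl ratio of 0.22, and the 4 blue genes lie below it at Ctrl ratios of 2.42 to 5.38.

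The 2 genotypes each had a strong contrast between fractions, with 9630 genes (50.4%) past the test of the ratio in Stat3KO and 10412 (54.5%) in Ctrl. Among the 55 higher genes the median ratio was 2.86 in Stat3KO and 0.22 in Ctrl. For 20 of them the ratio passed as bead-enriched in Stat3KO and did not pass in Ctrl, 21 were bead-enriched in both genotypes, and 10 were bead-enriched in Stat3KO and bead-depleted in Ctrl. Wsb1 and Hhip were bead-depleted in both, while Il18bp and Herc6 were bead-depleted in Ctrl and not past the test in Stat3KO; the call on Herc6 was lost without Stat3KO pool 3, Ctrl pool 1 and Ctrl pool 2 (adjusted p = 0.175, 0.0783 and 0.148). All 4 lower genes were bead-enriched in both genotypes and less so in Stat3KO. In a fit without the block, given as a description with no test, the higher genes had a median genotype difference of 2.67 on beads (range 0.21 to 7.57) and of 0.23 in supernatant (-0.87 to 1.77). In 36 of 55 the supernatant difference was within 0.5 of 0. The 4 lower genes had medians of -1.45 on beads and -0.20 in supernatant.

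**Figure D2:**
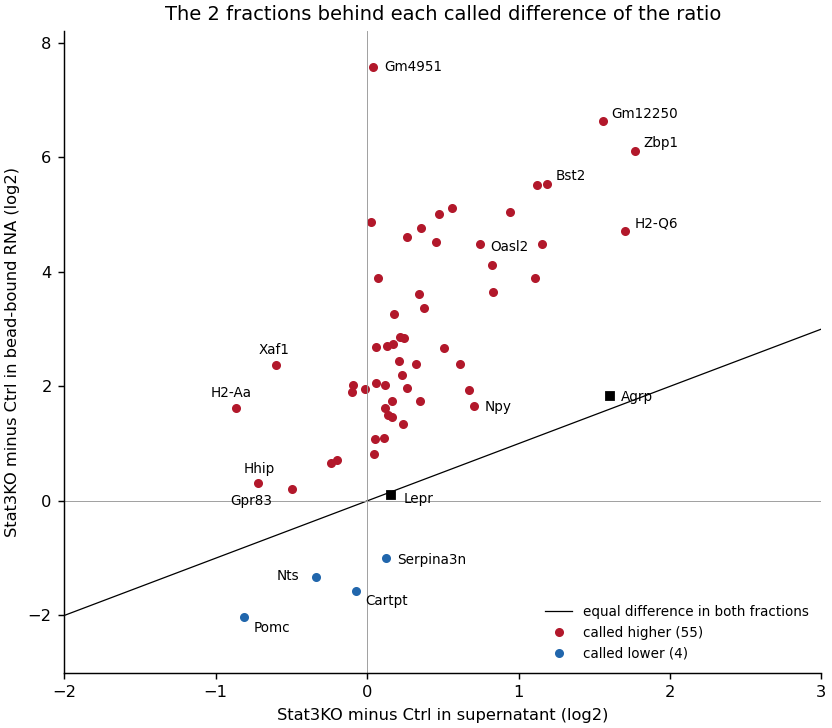
Genotype difference in supernatant (horizontal axis, log2) and in bead-bound RNA (vertical axis, log2) for the 55 higher genes (red) and the 4 lower genes (blue), with Agrp and Lepr as black squares; the vertical distance from the line of equal differences is the difference of the ratio. Most red genes stand high above the line with supernatant differences near 0, whereas Agrp lies near the line at 1.60 in supernatant and 1.84 on beads.

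Interferon-induced antiviral genes made up the largest group of higher ratios. Of 49 tested members of the interferon-induced list 26 had a higher ratio in Stat3KO and 0 a lower one. Over all tested genes the shares were 0.288% and 0.0209%. Neither DESeq2, limma-voom nor an unadjusted p under 0.05 gave any lower member (0 in each). A gene could pass the count filter through a single group, and Oasl1 passed it through the Stat3KO beads. It was at 0.368 to 0.440 CPM there and at most 0.242 CPM in any other library, so its sign was set in advance. The median difference of the list was 1.39, against -0.02 over all genes. The 150 bases before the start are printed from RefSeq (GRCm38.p6) for the 4 members of the interferon-induced and GTPase lists with the largest called differences among those with an entry in the RefSeq table, Iigp1 not printed. Pomc and Cartpt are printed beside them because their ratios moved in the opposite direction. They lie at chr4:156200819-156200968 (Isg15, minus strand), chr19:34640739-34640888 (Ifit1, plus), chr8:71537473-71537622 (Bst2, minus), chr3:142559894-142560043 (Gbp3, plus, the first of 2 entries), chr12:3954795-3954944 (Pomc, plus) and chr13:99900684-99900833 (Cartpt, minus). Capitals mark matches on either strand to GAAANNGAA, the letters of the ISRE repeat, or to TTCNNNGAA, the letters of the STAT palindrome.
Isg15: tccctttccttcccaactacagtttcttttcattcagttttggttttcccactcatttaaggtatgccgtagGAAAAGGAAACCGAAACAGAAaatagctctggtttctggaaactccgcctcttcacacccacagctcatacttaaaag
Ifit1: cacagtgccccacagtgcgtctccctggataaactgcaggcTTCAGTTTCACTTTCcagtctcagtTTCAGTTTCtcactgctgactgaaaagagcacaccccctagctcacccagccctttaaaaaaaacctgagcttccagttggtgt
Bst2: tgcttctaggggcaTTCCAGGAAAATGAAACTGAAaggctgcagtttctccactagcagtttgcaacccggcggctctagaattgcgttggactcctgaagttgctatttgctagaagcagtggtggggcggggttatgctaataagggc
Gbp3: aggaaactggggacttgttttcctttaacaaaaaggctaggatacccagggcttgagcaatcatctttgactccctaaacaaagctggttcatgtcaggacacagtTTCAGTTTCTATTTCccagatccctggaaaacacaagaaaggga
Pomc: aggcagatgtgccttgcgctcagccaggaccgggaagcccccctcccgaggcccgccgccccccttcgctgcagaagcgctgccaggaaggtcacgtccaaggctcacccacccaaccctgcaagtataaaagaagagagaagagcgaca
Cartpt: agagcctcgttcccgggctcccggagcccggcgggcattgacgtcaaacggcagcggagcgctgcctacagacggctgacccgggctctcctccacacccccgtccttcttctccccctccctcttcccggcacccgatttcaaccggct
Isg15 has 3 overlapping ISRE-type matches between -78 and -58 from the start and Ifit1 has 3 between -109 and -76. Bst2 has 2 ISRE-type matches (-130 to -122 and -124 to -116), and only the first overlaps with its 1 STAT-type match (-136 to -128). Gbp3 has 2 ISRE-type matches (-44 to -30). No match to either set of letters lies in the Pomc or Cartpt promoter.

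Over windows of 300 bases (250 before to 50 after the start), an ISRE-type match was in 20 of the 46 higher genes with a RefSeq entry (43.5%), against 8.68% of 13189 tested genes. A STAT-type match was in 12 of the 46 (26.1%), against 8.29%. Both shares were no lower among list members whose ratio was not called: of 28 such members with an entry 57.1% had the ISRE type and 28.6% the STAT type. None of the 4 lower genes had either. These are counts of letters in fixed windows and show no binding.

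Bst2 (ENSMUSG00000046718; GRCm38 chromosome 8, 71534255 to 71537456) encodes tetherin, which holds budding virus on the cell. It was at 66.0, 39.3 and 34.6 CPM on Stat3KO beads and 2.73, 1.80 and 1.23 CPM in their supernatants. Ctrl pools had 1.25, 0.898 and 0.888 CPM on beads and 1.20, 0.705 and 0.764 CPM in supernatant. Thus the Stat3KO beads were far above all other libraries, and in Ctrl the 2 fractions were alike. The Stat3KO supernatants also lay above the Ctrl ones, by 1.19 on the log2 scale in the fit without the block. The log2 ratio was 4.59 in Stat3KO and 0.21 in Ctrl, a difference of 4.39 (SE 0.234, adjusted p = 4.49e-06). Oasl2 (ENSMUSG00000029561; chromosome 5, 114896936 to 114912234), of the oligoadenylate synthetase family, was at 123, 106 and 125 CPM on Stat3KO beads and 6.01, 7.81 and 5.93 CPM in their supernatants. Its Ctrl levels were 5.30, 4.94 and 5.57 CPM on beads and 4.91, 3.75 and 3.32 CPM in supernatant. Again the Stat3KO beads were far above all other libraries, with pool ratios of 3.76 to 4.38 against 0.11 to 0.74. Here too the Stat3KO supernatants lay above the Ctrl ones, by 0.74 in the fit without the block. The difference was 3.72 (SE 0.210, adjusted p = 4.49e-06).

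Several antiviral genes were poorer on the beads than in the supernatant in Ctrl and richer on the beads in Stat3KO. Isg15 (ENSMUSG00000035692; chromosome 4, 156199424 to 156200818), a ubiquitin-like protein that is joined to others after infection, was at 27.2, 13.6 and 15.1 CPM on Stat3KO beads and 0.984, 1.71 and 1.70 CPM in their supernatants. Ctrl beads had 0.876, 0.449 and 0.619 CPM and Ctrl supernatants 1.51, 1.21 and 1.58 CPM. The supernatants of the 2 genotypes overlap, and the beads lie on opposite sides of them. The ratio was 3.62 in Stat3KO and -1.19 in Ctrl, a difference of 4.80 (SE 0.462, adjusted p = 0.000233). Xaf1, an interferon-induced gene linked to cell death, went from -1.40 in Ctrl to 1.52 in Stat3KO, and its 3 Ctrl beads had 3.27 to 5.92 CPM against 9.22 to 12.3 CPM in Ctrl supernatants. The viral RNA binders Ifit3 (-0.95 in Ctrl, 1.62 in Stat3KO) and Ifit2 (-0.62 and 0.87) had the same pattern, as did Samd9l (-0.60 and 1.39), a restriction factor, and Parp12 (-0.56 and 0.46), an ADP-ribosyltransferase. Ifit1 had a difference of 4.53, and its Ctrl ratio of -0.50 did not pass (adjusted p = 0.114).

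Other called members covered sensing, effectors and feedback. The differences were 4.31 for Rtp4, 3.31 for Usp18, the protease that removes ISG15 and restrains interferon signalling, and 1.27 for Eif2ak2, the kinase PKR. Zbp1, a nucleic acid sensor, had 4.46, Ifi44 3.87, Parp14 2.24, Ifi35 2.06, Trim21, an antibody receptor inside the cell, 1.89, and Ddx58, the RNA sensor RIG-I, 1.36. Zbp1 was low in Ctrl, at 0.0269 to 0.250 CPM. Members that did not pass included Mx1 (1.16, adjusted p = 1), Oas3 (-0.40, adjusted p = 1) and Ifitm3 (-0.01, adjusted p = 1), all of them under 4 CPM in every group mean. Members with more counts also did not pass. Among these were Cmpk2 (55.1 to 86.2 CPM over the beads of both genotypes), Lgals3bp (17.4 to 44.4 CPM), Ifi27 (14.7 to 34.9 CPM) and Trim25 (8.43 to 20.9 CPM). At an unadjusted p under 0.05, 41 of the 49 members were higher, against 413 of all 19122 genes. The calls on Zbp1, Ifi44, Parp14, Parp12, Ifi35 and Ddx58 were lost without Ctrl pool 2 (adjusted p = 0.482, 0.118, 0.0704, 0.166, 0.0595 and 0.142), and all but Ifi35 were also lost without Stat3KO pool 3 (0.134, 0.0814, 0.0559, 0.174 and 0.147). Parp12 was further lost without each other pool except Ctrl pool 3, Ifi44 and Zbp1 without Stat3KO pool 1 and Ctrl pool 3, Zbp1 without Ctrl pool 1, and Parp14 without Stat3KO pool 2.

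Interferon-induced GTPases, which attack the membranes around parasites and bacteria inside cells, had the highest median difference of any list (2.79 over 17 members). All 17 differences were above 0, but some members were tested only because their Stat3KO beads were high, which set their sign in advance. Gbp10 was at 0.315 to 1.29 CPM on Stat3KO beads and at most 0.0791 CPM in any other library. Tgtp1 was at 2.26 to 3.69 CPM and at most 0.250 CPM, and Gbp8 and Tgtp2 were alike. The median and the counts of this list include these members and are a description. Of the members 8 passed as higher and 0 as lower, against 0.288% and 0.0209% of all genes. At an unadjusted p under 0.05 there were 15 higher and 0 lower, against 413 and 334 of all 19122 genes. DESeq2 called 11 members higher and limma-voom 7, with 0 lower in each. Irgm2 was at 54.7, 52.1 and 70.1 CPM on Stat3KO beads, 2.20, 4.14 and 3.48 CPM in their supernatants, 2.54, 1.89 and 3.20 CPM on Ctrl beads and 2.13, 2.32 and 2.65 CPM in Ctrl supernatants. The Stat3KO supernatants overlapped the Ctrl ones and were 0.46 higher in the fit without the block. The Stat3KO beads were far above all other libraries (difference 4.09, SE 0.270, adjusted p = 1.44e-05). Irgm2 and Igtp (2.77) overlap on chromosome 11 from 58199618 to 58207591, and how reads in that stretch were assigned is not known. The others called were Iigp1 (4.60), Gbp3 (4.39), Ifi47 (4.37), Gbp6 (3.29), Irgm1 (2.59) and Gbp2 (2.28). Gbp2 was called with all 6 pools and lost without each of Stat3KO pools 1 and 3 and Ctrl pools 1, 2 and 3 (adjusted p = 0.0655 to 0.217). Gbp4 (2.79, adjusted p = 0.0797), Gbp7 (1.43, 0.0612) and the near-identical pair Tgtp1 (5.05, 0.146) and Tgtp2 (5.74, 0.540) did not pass. The members of this family are similar in sequence, so counts may be split among them.

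MHC class I presentation, by which cells show peptides to T cells, was divided. Of 23 tested members 9 had a higher ratio and 0 a lower one, against 0.288% and 0.0209% of all genes. At an unadjusted p under 0.05, 17 members were higher and 0 lower, against 413 and 334 of all 19122 genes. By DESeq2 and limma-voom 0 members were lower. H2-Q5 passed the count filter through the Stat3KO beads, at 1.14 to 1.84 CPM there and at most 0.511 CPM in any other library. The list's median was 0.86. B2m (ENSMUSG00000060802; chromosome 2, 122147686 to 122153083), the shared light chain, was at 445, 230 and 233 CPM on Stat3KO beads and 34.7, 26.0 and 19.7 CPM in their supernatants. Its Ctrl levels were 37.7, 43.3 and 59.5 CPM on beads and 25.7, 25.3 and 26.2 CPM in supernatant. The supernatants overlap, and the lowest Stat3KO bead level was well above the highest Ctrl one. The ratio was 3.46 in Stat3KO and 0.85 in Ctrl, a difference of 2.62 (SE 0.173, adjusted p = 1.44e-05). The heavy chain genes H2-K1 (3.09), H2-T23 (2.00) and H2-D1 (1.08) passed, as did H2-Q6 (3.11) and H2-Q7 (3.37), whose sequences are nearly the same. The peptide transporter gene Tap1 (2.55) and the immunoproteasome subunits Psmb8 (2.82) and Psmb9 (3.06) passed, while the partner genes Tap2 (0.35, adjusted p = 1), Tapbp (0.49, 0.615) and Psmb10 (0.55, 0.194) did not. H2-Q6 was lost without Stat3KO pool 3 and Ctrl pools 2 and 3 (adjusted p = 0.0910, 0.0850 and 0.343), and H2-Q7 without Stat3KO pools 1 and 3 and Ctrl pools 1 and 2 (0.0549, 0.120, 0.0760 and 0.251). Cd274, which encodes the checkpoint ligand PD-L1 and stands in no list, had a difference of 1.67 (SE 0.213, adjusted p = 0.00277).

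**Figure D3:**
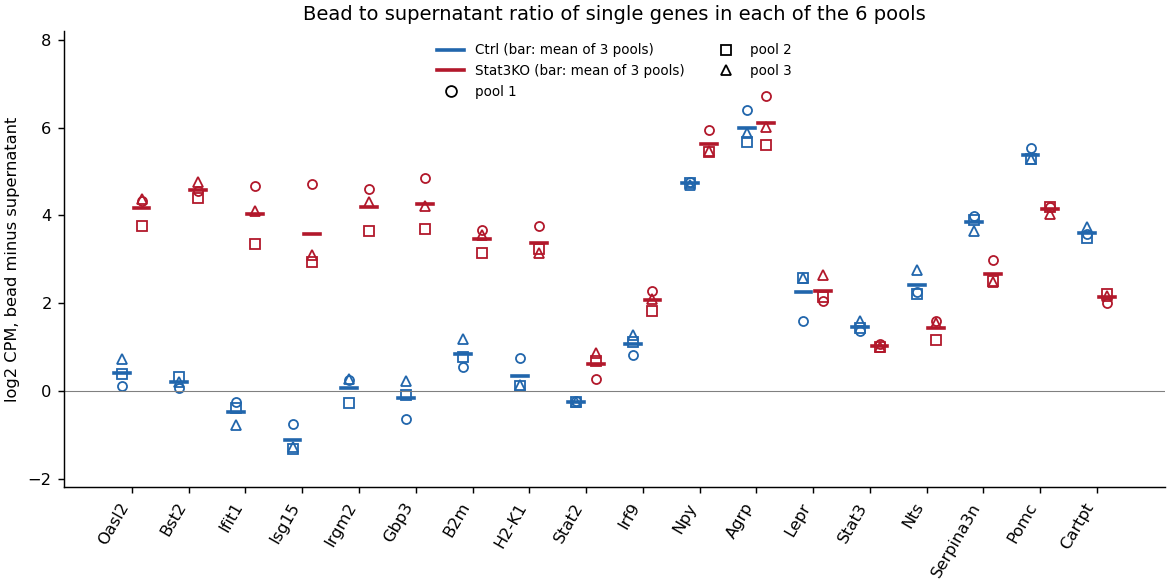
Log2 CPM on beads minus log2 CPM in supernatant for 18 genes, with each symbol 1 pool (circle 1, square 2, triangle 3), Ctrl in blue, Stat3KO in red and a bar at the mean of 3 pools. From Oasl2 to Irf9 every red symbol is above every blue one, the pools of the 2 genotypes overlap for Agrp and Lepr, and for Nts, Serpina3n, Pomc and Cartpt every red symbol is below the blue ones.

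Genes of the proteins that carry the interferon signal also had higher ratios. Irf9 (chromosome 14, 55603571 to 55610030), a DNA-binding part of the complex at ISRE, was at 44.6, 44.2 and 47.2 CPM on Stat3KO beads, 9.16, 12.5 and 11.1 CPM in their supernatants, 21.5, 19.6 and 22.4 CPM on Ctrl beads and 12.2, 8.94 and 9.29 CPM in Ctrl supernatants. Both genotypes were richer on beads, and Stat3KO more so (2.06 against 1.08, difference 0.99, SE 0.163, adjusted p = 0.0246). Stat2, of the same complex, had 0.86 (SE 0.159, adjusted p = 0.0476), on Ctrl beads of 15.1 to 17.5 CPM and Stat3KO beads of 16.2 to 32.0 CPM, which overlap. Irf7, which drives interferon genes, had 1.78, Irf8 2.25 and Irf1 1.29. Each of these calls was lost on leaving out pools. Irf9 had adjusted p = 0.137, 0.0668 and 0.107 without Stat3KO pool 3, Ctrl pool 1 and Ctrl pool 2, and Stat2 0.0899 to 0.323 without any pool but Stat3KO pool 1. Irf7 had 0.0527 to 0.0764 without Stat3KO pools 2 and 3 and Ctrl pools 1 and 2. Irf8 had 0.0536 to 0.112 without the same Stat3KO pools and Ctrl pools 2 and 3, and Irf1 had 0.0741 to 0.237 without Stat3KO pools 1 and 3 and Ctrl pools 1 and 2.

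The wider JAK-STAT list holds receptors, kinases and inhibitors. Of 38 tested members 2 were higher, Stat2 among them, against 0.288% of all genes, and 0 were lower, with 1 lower at an unadjusted p under 0.05 and 0 lower by DESeq2 and limma-voom, and the median was -0.02. The kinase genes Jak2 (0.07) and Tyk2 (0.03) and the interferon receptor genes Ifnar1 (-0.16), Ifnar2 (-0.39) and Ifngr1 (0.11) had adjusted p = 1. The feedback inhibitors Socs1 (0.96), Cish (0.81) and Socs3 (-0.32) did not pass (adjusted p = 1, 0.708 and 1).

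Markers of other cell types were set beside these results. The 16 microglial markers summed to 37.2 to 73.6 CPM on Stat3KO beads and 49.7 to 83.1 CPM on Ctrl beads, and their median difference of the ratio was 0.17. Endothelial markers varied strongly between pools, with median log2 ratios of -0.25, 2.24 and 2.10 in the Stat3KO pools and 0.89, 1.47 and 2.11 in the Ctrl pools. In those same pools the interferon-induced list had medians of 1.92, 1.21 and 1.65 (Stat3KO) and of -0.06, -0.10 and 0.17 (Ctrl). The part of endothelial RNA in the interferon result was not tested. In all 14 marker lists 0 members passed by edgeR, DESeq2 and limma-voom. Before adjustment p was under 0.05 for 3 markers of striatum and cortex, 1 of fibroblasts and 1 of choroid plexus, all higher. Median differences ran from -0.16 (endothelium) to 0.17 (microglia), except 0.50 for choroid plexus, whose 9 markers summed to 39.3 to 189 CPM in Stat3KO and 54.1 to 105 CPM in Ctrl libraries. Neuronal markers had a median of -0.14, with 1 of 15 above 0.

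The lower ratios included the 2 genes of appetite-suppressing arcuate peptides. Cartpt (ENSMUSG00000021647; chromosome 13, 99898489 to 99901091), the gene of the CART peptide, was at 219, 178 and 128 CPM on Stat3KO beads and 54.4, 38.1 and 28.4 CPM in their supernatants. Ctrl beads had 564, 429 and 559 CPM and Ctrl supernatants 47.1, 38.2 and 42.1 CPM. The supernatants overlap, and all Stat3KO beads were below all Ctrl beads. The ratio was 2.13 in Stat3KO and 3.60 in Ctrl, a difference of -1.47 (SE 0.106, adjusted p = 1.66e-05). The pools were close together, at 2.01 to 2.22 in Stat3KO and 3.49 to 3.73 in Ctrl. Without the pool block the call was lost (adjusted p = 0.117).

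Pomc (ENSMUSG00000020660; chromosome 12, 3954951 to 3960642), the precursor of melanocortins and beta-endorphin, differed in both fractions. It was at 142, 138 and 101 CPM on Stat3KO beads and 518, 576 and 470 CPM on Ctrl beads. The Stat3KO supernatants held 7.67, 7.53 and 6.17 CPM and the Ctrl supernatants 11.03, 14.6 and 12.0 CPM. The groups were apart in each fraction, and further apart on the beads (-2.03, against -0.81 in supernatant). The ratio fell from 5.38 in Ctrl to 4.16 in Stat3KO, a difference of -1.22 (SE 0.114, adjusted p = 0.000183). Pomc passed under all 16 other settings, at -1.27 to -1.14.

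Serpina3n and Nts completed the lower genes. Serpina3n (chromosome 12, 104406729 to 104414329), a secreted protease inhibitor that cytokines induce, was at 98.3, 82.3 and 64.4 CPM on Stat3KO beads, 12.3, 14.4 and 11.4 CPM in their supernatants, 143, 153 and 196 CPM on Ctrl beads and 8.99, 10.2 and 15.7 CPM in Ctrl supernatants. The beads were apart, the supernatants overlapped, and the difference was -1.16 (SE 0.153, adjusted p = 0.00358; 0.438 without the pool block). Its neighbour in the same gene cluster, Serpina3f, moved the other way, with a ratio of 5.32 in Stat3KO and 1.18 in Ctrl (difference 4.14, SE 0.739, adjusted p = 0.0386), on Ctrl levels under 1 CPM. That call was lost without Stat3KO pool 3, Ctrl pool 2 and Ctrl pool 3 (adjusted p = 0.0744, 0.148 and 0.898). Nts (chromosome 10, 102481756 to 102490486), which encodes neurotensin, was at 77.1, 38.0 and 41.4 CPM on Stat3KO beads, 25.5, 16.9 and 14.0 CPM in their supernatants, 94.9, 121 and 176 CPM on Ctrl beads and 19.7, 26.0 and 25.7 CPM in Ctrl supernatants. The beads did not overlap and the supernatants did. The Nts difference was -0.98 (SE 0.166, adjusted p = 0.0272), lost without Stat3KO pool 2, Stat3KO pool 3 and Ctrl pool 3 (0.141, 0.0752 and 0.0883), without the pool block (adjusted p = 1) and in limma-voom with pool as a random effect (adjusted p = 0.273).

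**Figure D4:**
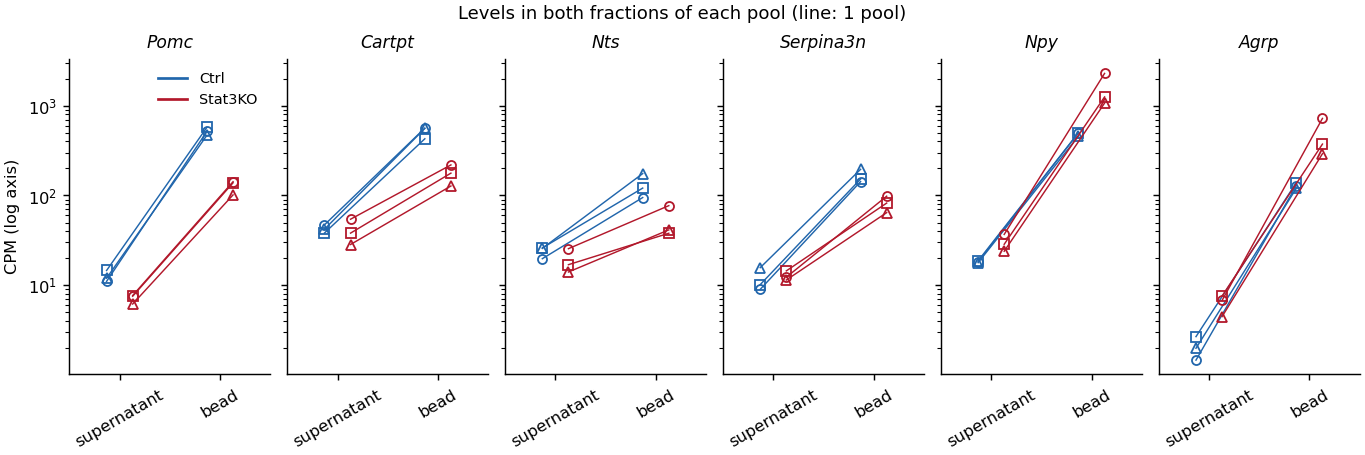
CPM in supernatant and on beads (log axis) for 6 genes, with each line joining the 2 fractions of 1 pool, Ctrl in blue and Stat3KO in red. Pomc, Cartpt, Nts and Serpina3n have flatter red lines, Npy has steeper red lines, and for Agrp the red lines are shifted up in both fractions and run parallel to the blue ones.

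Of the 2 genes of the appetite-stimulating arcuate neurons, Npy passed the test of the ratio and Agrp did not. The 2 genes were not tested against each other. Npy (ENSMUSG00000029819; chromosome 6, 49822710 to 49829507) was at 2296, 1256 and 1071 CPM on Stat3KO beads and 36.8, 28.6 and 23.9 CPM in their supernatants. Ctrl pools had 500.1, 502 and 460 CPM on beads and 18.3, 18.7 and 17.8 CPM in supernatant. Stat3KO was higher in both fractions, with more of a gap on beads. The ratio was 5.64 in Stat3KO and 4.74 in Ctrl, a difference of 0.90 (SE 0.135, adjusted p = 0.0105). The call was lost without Ctrl pool 2 and Ctrl pool 3 (adjusted p = 0.0764 and 0.0615), without the pool block (adjusted p = 1) and in limma-voom with pool as a random effect (adjusted p = 0.241).

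Agrp (ENSMUSG00000005705; chromosome 8, 105566698 to 105637393), the melanocortin receptor antagonist, was at 724, 374 and 292 CPM on Stat3KO beads and 129, 139 and 120 CPM on Ctrl beads. The Stat3KO supernatants held 6.76, 7.58 and 4.47 CPM and the Ctrl supernatants 1.46, 2.67 and 1.98 CPM. Both fractions were higher in Stat3KO with no overlap, by 1.84 on beads and 1.60 in supernatant. The ratios were 6.14 and 5.96, the pools overlapped, and the difference of 0.18 (SE 0.274, adjusted p = 1) changed sign without Stat3KO pool 1 (-0.16). The levels of Agrp were thus apart in both fractions, and its ratio was not.

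Over the neuropeptide list 1 of 52 tested members was higher and 3 were lower, against 0.288% and 0.0209% of all tested genes. The median difference was -0.30, with 40 members below 0 and 12 above it, while 8879 of all 19122 genes lay above 0. At an unadjusted p under 0.05, 12 members were lower and 3 higher, against 334 and 413 of all genes. Among those that did not pass were the dynorphin precursor gene Pdyn (-0.50, adjusted p = 0.274), the granule peptide Vgf (-0.52, 0.348), somatostatin Sst (-0.57, 0.558), galanin Gal (-0.41, 0.817), Vip (-0.61, 0.982) and Ghrh (-0.04, 1). The genes of melanin-concentrating hormone (Pmch, 0.11), oxytocin (Oxt, -0.03) and vasopressin (Avp, -0.51), which were poorer on beads in both genotypes by their group means, had adjusted p = 1. The mean Sst level was 128 CPM on Stat3KO and 193 CPM on Ctrl beads, and 107 and 111 CPM in supernatant. The list's median ratio was 0.78, 0.57 and 0.69 in the Stat3KO pools and 0.95, 0.79 and 0.87 in the Ctrl pools.

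The leptin and STAT3 target list was split. Of 35 tested members 2 were higher, Irf9 among them, and 3 were lower (Pomc, Serpina3n and Nts), and the median was -0.06. Over all tested genes 0.288% were higher and 0.0209% lower. Socs3, the feedback inhibitor that leptin induces, was at 8.02, 4.44 and 4.69 CPM on Stat3KO beads and 6.21, 5.19 and 6.62 CPM on Ctrl beads. The groups overlapped, as they did for Atf3, a stress-induced factor (differences -0.32 and -0.52, adjusted p = 1 for each). Serpina3c (-2.39), Serpina3m (-1.14), Serpina3i (-0.86), Serpina3g (0.98) and Serpina3h (1.01) did not pass (adjusted p from 0.957 to 1), with mean levels of at most 2.90 CPM in any group.

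**Figure D5:**
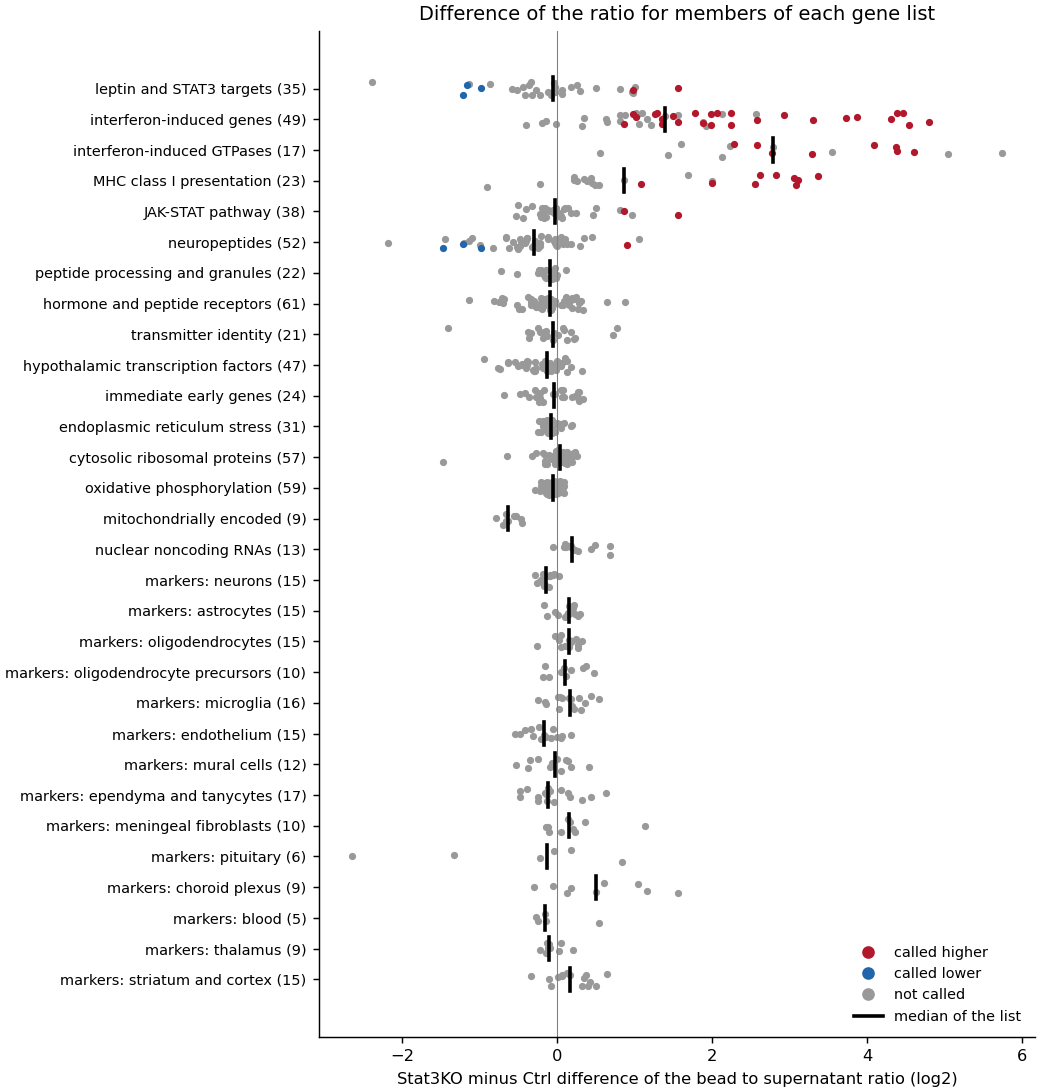
Difference of the ratio (log2, Stat3KO minus Ctrl) for every tested member of 16 gene lists and 14 marker lists, with 1 point per gene, called genes in red or blue, and a black bar at each list's median; the number tested stands beside each name. The 3 lists of interferon-induced genes, GTPases and MHC class I have medians of 1.39, 2.79 and 0.86, and the other medians lie between -0.63 and 0.50.

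In the 10 remaining lists 0 members passed by edgeR or limma-voom. DESeq2 called 1 receptor and 1 transcription factor lower, Npy1r (-0.73, adjusted p = 0.0164) and Nr5a1 (-0.75, adjusted p = 0.0322). Npy1r, a receptor for neuropeptide Y, was at 13.6 to 15.96 CPM on Stat3KO beads and 22.7, 25.1 and 30.9 CPM on Ctrl beads, while the supernatants overlapped (11.6 to 16.4 and 13.3 to 15.8 CPM). In edgeR it had -0.74 (SE 0.144, adjusted p = 0.0691). Nr5a1, the factor SF-1 of the ventromedial nucleus, had -0.76 (adjusted p = 0.133), with a bead difference of -0.21 and a supernatant difference of 0.53. Prdm12, a factor of Pomc neurons, was at 5.66 to 7.25 CPM on Stat3KO and 9.42 to 11.7 CPM on Ctrl beads (-0.94, adjusted p = 0.274). At an unadjusted p under 0.05, 8 of 47 transcription factors, 6 of 61 receptors, 3 of 22 genes of peptide processing, 2 of 24 immediate early genes, 1 of 21 transmitter genes and 1 of 59 genes of oxidative phosphorylation were lower, against 334 of all 19122 genes. There were 2 immediate early genes and 1 of 13 nuclear noncoding RNAs higher, against 413 of all genes, and 0 in either direction of 31 ER stress genes, 57 ribosomal protein genes and 9 mitochondrially encoded genes. Ribosomal protein genes had a median of 0.04, and the median of the mitochondrial genes, -0.63, went with the high share in Ctrl pool 1: their median log2 ratio was -2.74 there and -5.71 to -5.04 in the other 5 pools.

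Outside the 3 antiviral lists 12 genes had a higher ratio: Npy, Cd274, Serpina3f, Parp10, Gm12250, Gm4951, Samhd1, Il18bp, H2-Aa, Wsb1, Gpr83 and Hhip. These were named because they were called, after their values were seen. Gm4951, a gene model near Iigp1 on chromosome 18, had the largest called difference, 7.53 (SE 0.606, adjusted p = 4.60e-05). It was at 12.8, 8.93 and 11.1 CPM on Stat3KO beads, 0.252, 0.347 and 0.158 CPM in their supernatants, 0.0417, 0.0321 and 0.0807 CPM on Ctrl beads and 0.177, 0.227 and 0.334 CPM in Ctrl supernatants. Such Ctrl levels are few reads, so the size of this difference is uncertain. The gene passed the count filter through the Stat3KO beads. Parp10 (2.65), an ADP-ribosyltransferase, and Il18bp (1.98), the secreted antagonist of interleukin 18, followed the bead pattern of the antiviral genes. Il18bp was at 8.71, 5.49 and 5.78 CPM on Stat3KO beads and 2.46, 1.41 and 1.37 CPM on Ctrl beads, with 4.43 to 7.44 CPM in all supernatants. Samhd1 (0.76), which depletes nucleotides that viruses need, was lost without each pool but Stat3KO pool 1 (adjusted p = 0.0554 to 0.108), and Gm12250 (5.08) without Ctrl pool 3 (0.0866).

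In Gpr83 and Hhip the difference lay more in the supernatant than on the beads. Gpr83, a G protein-coupled receptor, was at 35.1, 24.3 and 21.9 CPM on Stat3KO beads and 22.1, 24.1 and 23.9 CPM on Ctrl beads, which overlap. The Stat3KO supernatants held 30.7, 17.7 and 14.9 CPM and the Ctrl ones 29.4, 30.8 and 29.5 CPM. Only the ratio separated the groups, at 0.19 to 0.55 in Stat3KO and -0.41 to -0.31 in Ctrl (difference 0.75, SE 0.132, adjusted p = 0.0356). Hhip, which binds hedgehog proteins, was at 5.00 to 5.24 CPM on Stat3KO and 2.84 to 5.54 CPM on Ctrl beads, and at 7.70 to 8.69 and 9.56 to 16.03 CPM in supernatant (1.05, SE 0.187, adjusted p = 0.0389). Gpr83 was lost without each pool but Stat3KO pool 1 (adjusted p = 0.103 to 0.228), and Hhip was lost without any 1 of the 6 pools (0.0689 to 0.334). Wsb1, part of a ubiquitin ligase, was poorer on beads in both genotypes (-1.06 in Stat3KO, -2.0 in Ctrl) and had a difference of 0.94 (SE 0.134, adjusted p = 0.00699; 1 without the pool block and 0.184 in limma-voom with pool as a random effect).

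Genes near Stat3 were counted apart. Of 238 tested genes within 5 Mb of it on chromosome 11, 1 was called, Ifi35 (101448407 to 101458698), an interferon-induced gene, against 59 of 19122 over all genes. Meox1 (101877510 to 101894374), a homeobox factor named after its values were seen, was at 1.05 to 1.57 CPM on Stat3KO beads and 3.15 to 3.55 CPM on Ctrl beads, with 2.21 to 3.79 and 1.86 to 2.30 CPM in supernatant. Its ratio was -1.21 in Stat3KO and 0.69 in Ctrl, and the difference of -1.90 (SE 0.352, adjusted p = 0.0501) missed the threshold. A830036E02Rik (99416956 to 99425497) was at 0.236 to 0.315 CPM on Stat3KO and 2.18 to 6.51 CPM on Ctrl beads, and at 0.356 to 0.681 and 14.3 to 23.4 CPM in supernatant. Both fractions were far lower in Stat3KO, and the ratio did not pass (1.60, adjusted p = 0.529). Krt12, which overlaps it, had 0.24 (adjusted p = 1), with differences of -2.89 on beads and -3.12 in supernatant.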

How the data were processed

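Raw RNA-seq counts per gene, as deposited by the authors for all 12 libraries in 1 table, were the input; their unit is whole reads per gene with no normalization. Per the labels' protocols, a 3 mm block holding the hypothalamus was taken, RNA of integrity number 8 or more was made into TruSeq mRNA libraries, and 50 cycles were read from 1 end. Per the submitters' processing notes STAR 2.5.3a and mm10 were used. The counting tool, its annotation and its use of strand were not given in the sources used here, so how reads in overlaps of genes were assigned is not known.

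Of 52638 entries 52403 matched GENCODE M21 (GRCm38) identifiers, 233 did not, and 2 are transgenes. Genes passed edgeR's filterByExpr by group (minimum count 10, minimum total 15), so a gene high in a single group could be tested. The fit was edgeR 4.0.16 quasi-likelihood in R 4.3.3 with TMM scaling and the pool as block, which leaves 4 residual degrees of freedom; Benjamini-Hochberg adjusted p under 0.05 over all genes tested was the threshold. Bead and supernatant of 1 pool come from the same animals, per the labels' titles, and their deviations from the group means correlated in all 6 pools (r from 0.196 to 0.367). A standard error is the size of the log2 difference over the root of F. Levels are TMM-scaled CPM, and log2 ratios per pool use a prior count of 2. The alternatives were limma 3.58.1 (voom), DESeq2 1.42.0, other scalings, filters and blocks, and leaving out pools.

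The members and gene lists were chosen with earlier results of these data known. Named genes were a fixed set of leptin and tagging genes, up to 15 called genes per direction by size with a log2 mean CPM of at least 1, up to 4 members per list by p, called members of lists with 5 or fewer calls, up to 6 genes with opposite ratios, up to 6 genes with like differences in both fractions, and called genes within 5 Mb of Stat3; other called genes, other list members and class II genes were named after their values were seen. On data simulated for this contrast over 19122 genes, 80% of genes changed by 1 on the log2 scale and 98% of those changed by 2 were called. In the same data 8 unchanged genes were called. The changed genes were drawn only from genes above a limit on the mean simulated count, so these shares do not cover genes of low counts. Some items that met these rules are not reported here.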

Additional observations from a re-analysis of the deposited data

Results flagged for a closer look

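In 55 genes the bead to supernatant ratio was higher in Stat3KO than in Ctrl, and in 4 it was lower, by edgeR's test of the difference itself with adjustment over all genes. In 10 of the 55 the fractions were in the opposite order in the 2 genotypes: richer on beads in Stat3KO and poorer on beads in Ctrl, each past its own test. Of these 10 the difference was 7.53 for Gm4951, 4.80 for Isg15, 2.93 for Xaf1, 2.58 for Ifit3, 1.99 for Samd9l, 1.49 for Ifit2 and 1.02 for Parp12. Gm4951 was near 0 in Ctrl, at 0.0321 to 0.0807 CPM on beads and 0.177 to 0.334 CPM in supernatant. Its order in Ctrl and the size of its difference thus rest on few reads. The macrophage and B cell factor gene Irf8 had 2.25, the MHC class II gene H2-Aa had 2.48 and Gpr83 had 0.75. The calls on Irf8, H2-Aa, Gpr83 and Parp12 were lost on leaving out single pools, with adjusted p up to 0.112, 0.122, 0.228 and 0.174.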

How the results depend on the processing

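The 59 calls kept their direction in all 16 other settings. Without the replicate block the count of higher genes was 37 and that of lower genes 2; with a block for the replicate number shared by the genotypes it was 65 and 10, and same-numbered ratios correlated at 0.0855, -0.0456 and 0.111, with pool 1 apart from the others in both genotypes. Without the pool block the lost calls outside those given above had adjusted p from 0.0636 (Ddx58) to 1 (Stat2, Gpr83 and Hhip); with pool as a random effect in limma-voom Stat2 (0.176), Gpr83 (0.267) and Hhip (0.0835) were lost too. DESeq2 gave 71 and 9, no filter on low counts 113 and 33, and pools 2 and 3 of each genotype alone 116 and 21. Leaving out 1 pool gave 33 to 52 higher and 3 to 9 lower genes. The number of genes past the test of the ratio was then 7811 to 9650 in Stat3KO and 7787 to 11092 in Ctrl.

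Of 1534 values for 96 single genes 31 changed sign, in genes whose ratio did not pass. Tuba1c had 0.055 with no block, 0.0067 in DESeq2, 0.32 with pool as a random effect, 0.0186 with library totals, 0.0015 with no filter and 0.22 with pools 2 and 3. Ghrh had 0.0037 in voom. With pools 2 and 3 alone Plin4 had 0.29, Agrp -0.024, mt-Nd6 0.074 and mt-Nd5 0.10. Without single pools the values spanned 0 in Tuba1c (-0.25 to 0.17), Ghrh (-0.21 to 0.28), Plin4 (-0.25 to 0.13), Lepr (-0.32 to 0.11), Agrp (-0.16 to 0.49), mt-Nd6 (-1.26 to 0.10), mt-Nd5 (-1.14 to 0.068), Gfp_L10a (-0.41 to 0.073), Cre (-1.03 to 0.14), Krt12 (-0.45 to 0.57) and Gnat1 (-0.61 to 2.81). The causes were not tested.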

Other observations

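MHC class II genes, which are made mostly by immune cells and are in none of the lists, also had ratios that were higher in Stat3KO in the values, with H2-Aa past the test. H2-Aa was at 4.40, 1.94 and 1.49 CPM on Stat3KO beads and 1.08, 0.962 and 0.511 CPM on Ctrl beads, against 0.633 to 1.26 and 1.51 to 1.86 CPM in supernatant. The difference was 2.48 (SE 0.431, adjusted p = 0.0321), and it was lost without any 1 pool but Ctrl pool 1 (adjusted p = 0.0682 to 0.122). Its partners Cd74 (1.8, adjusted p = 0.199), H2-Eb1 (1.56, 0.274) and H2-Ab1 (1.27, 1) and their activator Ciita (0.62, 1) did not pass. Microglial marker sums were not higher on Stat3KO beads, as given above, and the part of immune cells in these values was not tested.

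Gnat1, which encodes the transducin of rod photoreceptors, was high in 1 pool. It was at 4.90 CPM on beads and 24.3 CPM in supernatant of Ctrl pool 3, and at most 0.535 CPM in the other libraries. The difference of the ratio was 2.19 (adjusted p = 1).

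Tuba1c differed between pools of 1 genotype in both fractions. It was at 0.377 and 0.341 CPM on the beads of Stat3KO pools 1 and 2 and at 4.15 CPM on those of pool 3, with 0.328, 0.139 and 2.96 CPM in the supernatants. Ctrl pools had 5.90 to 13.7 CPM on beads and 5.14 to 8.77 CPM in supernatant, and the ratio did not differ past the test (-0.02, adjusted p = 1). Plin4, a lipid droplet gene, was higher in Stat3KO by 1.34 on beads and 1.36 in supernatant, values with no test, and its ratio differed by -0.08 (adjusted p = 1).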
